A study of Mus musculus with 6 samples.

Results

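Inhibitory receptors are surface proteins that restrain an activated T cell when they bind their ligands on tumor cells or antigen-presenting cells. PD-1, CTLA-4 and BTLA belong to the CD28 family, PD-1 and BTLA recruiting phosphatases through motifs in their tails and CTLA-4 competing with CD28 for the same ligands. LAG-3 resembles CD4 and binds MHC class II, TIM-3 and TIGIT carry immunoglobulin domains, CD160 shares the ligand HVEM with BTLA, and CD244 (2B4) binds CD48 and signals through small SAP adaptors. T cells raise most of these receptors after stimulation of the T cell receptor, and several are also known on NK cells, B cells, macrophages or dendritic cells.

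The 8 genes described here encode these receptors: Pdcd1 (PD-1), Ctla4, Lag3, Havcr2 (TIM-3), Tigit, Cd160, Btla and Cd244. They were taken by symbol from the 21358 genes of the expression table, all 8 were present, and all 8 passed the minimum mean level of 0.1 FPKM that left 14172 genes for testing. FPKM counts fragments per kilobase of exon, scaled to all fragments mapped in the library, so levels of different genes can be set side by side.

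The data are RNA-seq profiles of 6 whole tumors harvested at day 12 after adoptive cell transfer (ACT), 3 from mice given ACT + IL-2 and 3 from mice given ACT + NKTR-214. All mice were female C57BL/6 animals of 6 to 8 weeks carrying subcutaneous B16-F10, a syngeneic murine melanoma line positive for gp100, and all were lymphodepleted by total body irradiation. Once tumors measured at least 150 mm3, every mouse received splenocytes from female pmel-1 Thy1.1+ mice of 5 to 7 weeks that had been activated in culture with gp100 peptide and murine IL-2. The CD8 T cells of pmel-1 mice carry a transgenic receptor for gp100, and the Thy1.2+ lymphocytes left in the host can be in the same tumors, where their transcripts are not separated from those of the transferred cells. One group received human IL-2 (aldesleukin) by the intraperitoneal route, in daily doses of 0.4 mg/kg for the first 3 days of every cycle of 9 days. The other received NKTR-214, IL-2 joined to releasable polyethylene glycol chains, intravenously at 0.8 mg/kg once per cycle. Agent, dose, route and schedule therefore changed together and cannot be told apart. Each library is 1 tumor, the 3 of a group being biological replicates, and no untreated tumor is analysed here.

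The comparison asks whether the inhibitory receptors differed between the 2 treatments, and whether they differed by more or less than Cd3e, the gene of the CD3 epsilon chain of the T cell receptor complex. Fold changes are ACT + NKTR-214 minus ACT + IL-2 on log2(FPKM + 1), tested with limma over all 14172 genes with Benjamini-Hochberg adjustment at 0.05. On this scale the change of a gene with a low level comes out too small. In bulk tumor RNA, more cells of a type and more RNA per cell cannot be told apart.

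Across all genes tested, 2940 (20.7%) were higher and 1173 (8.28%) lower in ACT + NKTR-214, with a median log2 fold change of 0.045. Scaling the tumors to a common 75th percentile changed that split to 3262 and 3710, quantile normalization to 2669 and 4553, and leaving out ACT + IL-2 replicate 2, which had the lowest summed FPKM, to 2004 and 2003. The steps between low FPKM values put the depth at about 20900000 to 24670000 reads per library. Melanocyte marker genes were abundant in every tumor, and of 9 T cell marker genes 8 were higher in ACT + NKTR-214 and none lower.

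The receptor genes lie on 5 chromosomes of GRCm38. Pdcd1 (chr1:94038305-94052553, minus strand), Ctla4 (chr1:60887000-60915832, plus strand) and Cd244 (chr1:171559193-171609746, plus strand, named Cd244a in GENCODE vM21) share chromosome 1, and Tigit (chr16:43648867-43664146, minus strand) and Btla (chr16:45224315-45257670, plus strand) share chromosome 16. Lag3 is at chr6:124904361-124911705 (minus strand), Havcr2 at chr11:46454935-46481255 (plus strand) and Cd160 at chr3:96798763-96829351 (minus strand). Exons of other annotated genes overlapped 2.57% of the exon bases of Cd160, from Pdzk1, and none of those of the other 7 receptors.

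Promoter sequences of 4 receptors are shown because these genes marked the range of the results: Ctla4 and Pdcd1 had the largest fold changes of the 8, Cd244 the smallest, and Havcr2 the highest level in ACT + IL-2 tumors. They are the 250 bases before the RefSeq start on GRCm38.p6, written 5′ to 3′ on the strand of the gene. The region of Pdcd1 is chr1:94052554-94052803, of Ctla4 chr1:60908775-60909024, of Havcr2 chr11:46454681-46454930 and of Cd244 chr1:171558943-171559192. Capitals mark matches on either strand to 4 motifs of factors active in stimulated T cells: the NFAT core GGAAA, the AP-1 site TGANTCA, the STAT site TTCNNNGAA and the T-box core AGGTGT, of which GGAAA can overlap the STAT site.
Pdcd1: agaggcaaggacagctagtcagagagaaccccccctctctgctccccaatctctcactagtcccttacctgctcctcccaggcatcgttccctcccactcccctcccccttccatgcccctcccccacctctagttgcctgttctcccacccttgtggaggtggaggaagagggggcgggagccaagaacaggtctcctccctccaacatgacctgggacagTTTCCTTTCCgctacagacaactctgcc
Ctla4: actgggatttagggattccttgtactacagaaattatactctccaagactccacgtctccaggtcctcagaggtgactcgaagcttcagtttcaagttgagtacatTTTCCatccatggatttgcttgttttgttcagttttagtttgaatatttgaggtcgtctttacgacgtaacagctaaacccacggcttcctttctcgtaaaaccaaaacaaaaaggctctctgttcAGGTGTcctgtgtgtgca
Havcr2: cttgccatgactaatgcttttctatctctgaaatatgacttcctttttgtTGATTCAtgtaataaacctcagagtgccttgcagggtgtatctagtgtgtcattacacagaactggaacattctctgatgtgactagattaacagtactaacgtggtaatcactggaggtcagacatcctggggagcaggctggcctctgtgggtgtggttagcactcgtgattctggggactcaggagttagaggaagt
Cd244: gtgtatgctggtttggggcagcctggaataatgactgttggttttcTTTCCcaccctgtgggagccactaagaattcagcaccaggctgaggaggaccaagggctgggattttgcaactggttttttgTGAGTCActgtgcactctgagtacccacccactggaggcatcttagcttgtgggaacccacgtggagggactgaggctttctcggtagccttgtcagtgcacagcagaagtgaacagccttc
The Pdcd1 window held 2 NFAT core matches next to each other near its start site, read on the opposite strand. The Ctla4 window held 1 NFAT core and 1 T-box core, the Havcr2 window 1 AP-1 site, and the Cd244 window 1 NFAT core and 1 AP-1 site. Of 32851 promoter windows of the same length, 55.6% held the NFAT core, 6.7% the AP-1 site, 7.0% the STAT site and 11.8% the T-box core, so that an NFAT core is common in any promoter. These matches are a description of the letters and say nothing of binding in these tumors.

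All 8 inhibitory receptor genes were higher in ACT + NKTR-214 tumors, and for each of them the lowest ACT + NKTR-214 tumor lay above the highest ACT + IL-2 tumor. By comparison, 20.7% of all genes were called higher and 27.1% had groups that did not overlap with ACT + NKTR-214 on top. The mean FPKM rose by 3.46-fold for Cd244 up to 28.6-fold for Ctla4, and the median log2 fold change of the 8 genes was 2.22.

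**Figure D1:**
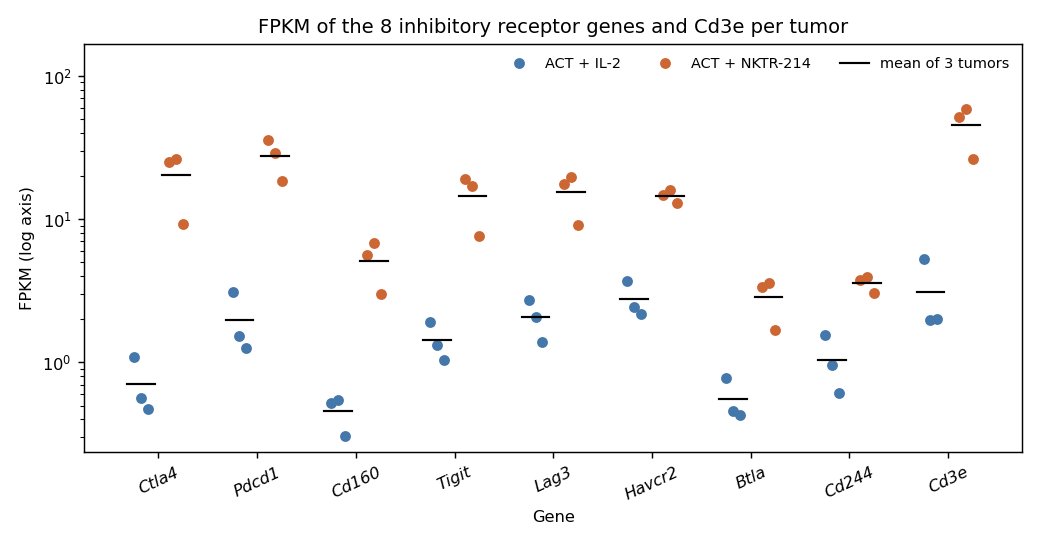
FPKM of the 8 inhibitory receptor genes and of Cd3e in each tumor on a log axis, ordered by fold of the group means, with 3 ACT + IL-2 tumors (blue) and 3 ACT + NKTR-214 tumors (orange) per gene in replicate order and a line at each mean. No receptor has overlapping groups, and ACT + NKTR-214 replicate 3 is the lowest of its group for all 8.

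Among the CD28 family, Pdcd1, the receptor for PD-L1 and PD-L2, measured 3.11, 1.54 and 1.26 FPKM in the ACT + IL-2 tumors (in replicate order 1, 2 and 3, as throughout). It measured 35.4, 29.0 and 18.4 FPKM in the ACT + NKTR-214 tumors. The lowest ACT + NKTR-214 tumor was thus well above the highest ACT + IL-2 tumor. The means were 1.97 ± 0.994 and 27.6 ± 8.58 (SD, n = 3), a 14.03-fold difference, with a log2 fold change of 3.27 ± 0.24 (SE, limma adjusted p = 1.14e-07).

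Ctla4, which competes with CD28 for CD80 and CD86, was at 1.09, 0.565 and 0.470 FPKM in the ACT + IL-2 tumors. It was at 25.1, 26.3 and 9.27 FPKM in the ACT + NKTR-214 tumors, with replicate 3 far below the other two. Its means were 0.707 ± 0.331 and 20.2 ± 9.52 (SD, n = 3), and its log2 fold change of 3.53 ± 0.29 was the largest of the 8 (limma adjusted p = 3.40e-07). In ACT + IL-2 tumors it was therefore among the lowest of the receptors, and in ACT + NKTR-214 tumors among the highest.

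Btla, which binds HVEM, was the smallest in level in ACT + NKTR-214 tumors. It measured 0.778, 0.4595 and 0.429 FPKM against 3.33, 3.58 and 1.68 FPKM, and its log2 fold change was 1.28 ± 0.18 (SE, limma adjusted p = 5.89e-05). The groups did not overlap, and their means were 0.556 ± 0.193 and 2.87 ± 1.03 (SD, n = 3). BTLA is also known on B cells. The B cell gene Pax5, too low to be tested, was at 0.0345 to 0.0394 FPKM with IL-2 and at 0 in all 3 ACT + NKTR-214 tumors. Cd79a and Cd79b, the B cell markers with enough signal to be tested, had log2 differences of -0.024 and 0.040 (limma adjusted p = 0.913 and 0.916). The part of B cells in the Btla difference was not tested.

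Lag3, the CD4-like receptor for MHC class II, was at 2.74, 2.07 and 1.38 FPKM in ACT + IL-2 tumors and at 17.6, 19.7 and 9.16 FPKM in ACT + NKTR-214 tumors. The means, 2.06 ± 0.678 and 15.5 ± 5.60 (SD, n = 3), differed 7.52-fold. The log2 fold change was 2.39 ± 0.24 (SE, limma adjusted p = 2.16e-06).

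Havcr2, which encodes TIM-3, was the most abundant of the 8 in every ACT + IL-2 tumor, at 3.73, 2.44 and 2.18 FPKM. It reached 14.6, 16.0 and 12.9 FPKM in the ACT + NKTR-214 tumors, the narrowest relative spread of any receptor in that group. The means were 2.78 ± 0.829 and 14.5 ± 1.57 (SD, n = 3), 5.22-fold apart, with a log2 fold change of 2.05 ± 0.17 (SE, limma adjusted p = 4.66e-07). TIM-3 is also known on macrophages and dendritic cells. All 7 macrophage and monocyte markers were called higher, against 20.7% of all genes, and 6 had groups without overlap, against 27.1%. Their summed level was 73.8 to 180.3 FPKM in ACT + IL-2 tumors and 333.9 to 564.0 FPKM in ACT + NKTR-214 tumors. Of these sums, Ly6c2 alone made up 3.22 to 7.47 and 58.2 to 129.0 FPKM. Of the 6 dendritic cell markers tested, 4 were higher, against 20.7% of all genes. The part of these cells in the Havcr2 difference was not tested.

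Tigit, which shares its ligands with the activating receptor CD226, measured 1.91, 1.31 and 1.04 FPKM in ACT + IL-2 tumors. It measured 19.0, 17.1 and 7.60 FPKM in ACT + NKTR-214 tumors, so that replicate 3 again lay below the other two while the groups stayed apart. The log2 fold change was 2.61 ± 0.25 (SE, limma adjusted p = 1.85e-06), and the means of 1.42 ± 0.446 and 14.6 ± 6.10 (SD, n = 3) differed 10.2-fold.

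Cd160 had the lowest mean of the 8 in ACT + IL-2 tumors, with Btla below it in replicate 2. It was at 0.524, 0.546 and 0.308 FPKM in these tumors and at 5.57, 6.76 and 2.9985 FPKM in ACT + NKTR-214 tumors. The means of 0.459 ± 0.132 and 5.11 ± 1.92 (SD, n = 3) were 11.1-fold apart, and the log2 fold change was 2.02 ± 0.20 (SE, limma adjusted p = 1.96e-06). Its larger fold of means beside a log2 fold change close to that of Havcr2 reflects the offset of 1, which weighs on low levels.

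Cd244 (2B4), known on NK cells, CD8 T cells and myeloid cells, moved least. It was at 1.54, 0.9535 and 0.611 FPKM in ACT + IL-2 tumors and at 3.74, 3.95 and 3.04 FPKM in ACT + NKTR-214 tumors. The means were 1.03 ± 0.470 and 3.58 ± 0.480 (SD, n = 3), a 3.46-fold difference, with a log2 fold change of 1.19 ± 0.17 (SE, limma adjusted p = 6.28e-05). CD160 and CD244 are both known on NK cells. The NK cell receptor gene Ncr1 was at 0.582 ± 0.313 FPKM in the ACT + IL-2 tumors and 0.672 ± 0.428 FPKM in the others (SD, n = 3), and Klra8 was at or below 0.248 FPKM in every tumor. Of the 5 NK cell markers, Gzma (granzyme A), Klre1 and Klrb1c were called higher (20.7% of all genes were), genes that activated CD8 T cells can also express. The summed level of the 5 ranged from 4.80 to 9.66 FPKM with IL-2 and from 224.7 to 305.2 FPKM with NKTR-214, nearly all of it from Gzma, which alone was at 213.0 to 286.4 FPKM with NKTR-214. The part of NK cells in the 2 receptors was not tested.

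The 8 receptor calls were kept under each scaling, filter and pseudocount tried and without any single tumor. They depended on pooling the variance over genes, as limma does: with each gene's own variance, none passed, at adjusted p-values of 0.0501 to 0.0722, and an exact permutation test of 3 against 3 tumors cannot go below 0.1.

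The estimated reads behind the lowest values were few. Cd160 rested on about 33, 33 and 17 reads in the ACT + IL-2 tumors, where 17 reads have a 95% Poisson interval of 9.9 to 27.2, and on about 363, 435 and 188 reads in the ACT + NKTR-214 tumors. Ctla4 rested on about 50, 25 and 19 reads against 1198, 1239 and 425, and Tigit on about 44, 29 and 21 against 452, 401 and 174. For these 3 genes the lowest count in ACT + NKTR-214 lay far outside the interval of the highest count in ACT + IL-2. Such intervals cover counting error only.

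The tumors of a group did not stand at one level. ACT + IL-2 replicate 1 had the highest value for 7 of the 8 receptors and replicate 3 the lowest for all 8. In ACT + NKTR-214, replicate 3 was lowest for all 8 and replicate 2 highest for 6. The summed FPKM of the 8 genes was 15.4, 9.88 and 7.68 in the ACT + IL-2 tumors and 124.5, 122.5 and 65.1 in the ACT + NKTR-214 tumors. Cd3e followed a similar course within groups, at 5.30, 1.97 and 1.99 FPKM and at 51.7, 58.2 and 26.4 FPKM.

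The order of the receptors by mean FPKM differed between the treatments. In ACT + IL-2 it ran Havcr2, Lag3, Pdcd1, Tigit, Cd244, Ctla4, Btla and Cd160, and every pair of neighbours differed by less than the larger of their SDs. In ACT + NKTR-214 it ran Pdcd1, Ctla4, Lag3, Tigit, Havcr2, Cd160, Cd244 and Btla, and only Havcr2 and Cd160 differed as neighbours by more than their SDs. Havcr2 led within each of the 3 ACT + IL-2 tumors, and Pdcd1 led within each of the 3 ACT + NKTR-214 tumors.

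Expressed as a share of the summed FPKM of the 8 receptors, Ctla4 held 5.72% to 7.04% in ACT + IL-2 tumors and 14.2% to 21.5% in ACT + NKTR-214 tumors, and Pdcd1 held 15.6% to 20.2% and 23.7% to 28.5%. Havcr2 went the other way, with 24.2% to 28.3% against 11.8% to 19.8%. The shares of Lag3, Cd244 and Btla also lay lower in ACT + NKTR-214 without overlap, while those of Tigit and Cd160 overlapped between the groups. Shares of one sum depend on each other, and they were not tested.

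**Figure D2:**
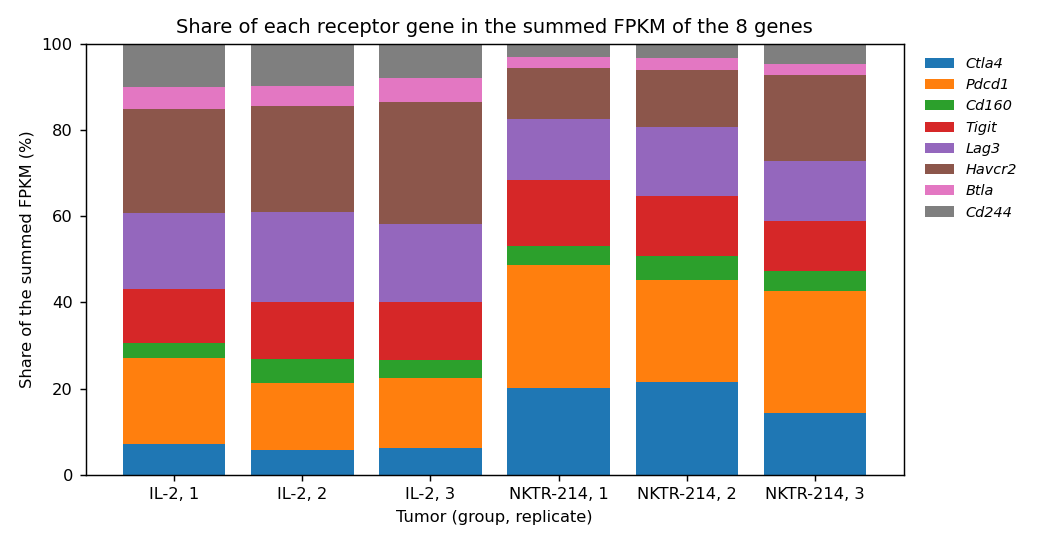
Share (%) of each receptor gene in the summed FPKM of the 8 genes, as 1 stacked bar per tumor, for 3 ACT + IL-2 and 3 ACT + NKTR-214 tumors. Ctla4 takes at most 7.04% in ACT + IL-2 and at least 14.2% in ACT + NKTR-214 tumors, while Havcr2 takes at least 24.2% in ACT + IL-2 and at most 19.8% in ACT + NKTR-214 tumors.

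To set the receptors against the T cell transcripts in the same tumor, each gene was divided by Cd3e. Mean Cd3e was 3.09 ± 1.91 FPKM with IL-2 and 45.4 ± 16.8 FPKM with NKTR-214 (SD, n = 3), 14.7-fold apart (log2 fold change 3.53, limma adjusted p = 3.64e-07). Of the 8 other T cell markers, 5 had ratios to Cd3e that overlapped between the groups, with log2 differences of 0.08 for Cd3d, 0.06 for Cd3g, -0.12 for Cd8a, -0.06 for Cd8b1 and -0.10 for Lat. The other 3 had lower ratios without overlap, as did 96.3% of all genes. These were Cd247, the CD3 zeta chain gene, at -2.40 (limma adjusted p = 1.72e-05), Thy1 at -0.68 (0.238) and Trat1, at most 0.417 FPKM in any tumor, at -3.78 (9.90e-10).

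Relative to Cd3e, the receptors fell into unequal positions. Ctla4 had a higher ratio in ACT + NKTR-214 tumors, Pdcd1 an overlapping one, Tigit and Cd160 lower but overlapping ones, and Lag3, Havcr2, Btla and Cd244 lower ones without overlap. Havcr2, Btla and Cd244 were called lower relative to Cd3e, and none of the 8 was called higher. Of all genes, 98.3% were called lower relative to Cd3e, with a median of -3.85, so that a lower call is the background of this comparison. The median of the 8 receptors was -0.91.

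**Figure D3:**
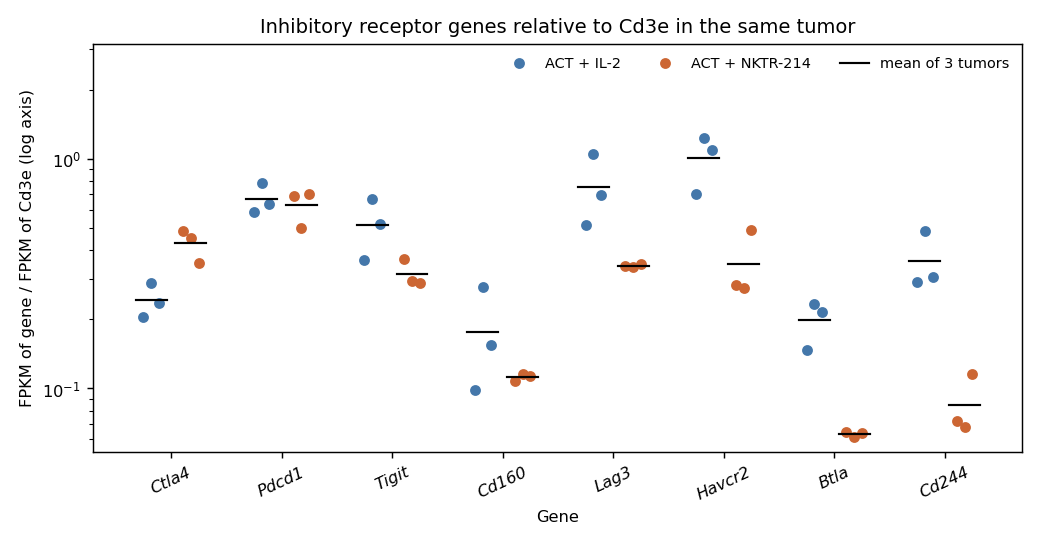
FPKM of each receptor gene divided by FPKM of Cd3e in the same tumor on a log axis, ordered by relative log2 difference, with 3 ACT + IL-2 (blue) and 3 ACT + NKTR-214 tumors (orange) per gene and a line at each mean. Ctla4 lies above its ACT + IL-2 values in all 3 ACT + NKTR-214 tumors, Pdcd1 overlaps, and Lag3, Havcr2, Btla and Cd244 lie below.

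The ratio of Ctla4 to Cd3e was 0.205, 0.287 and 0.236 in ACT + IL-2 tumors and 0.486, 0.452 and 0.351 in ACT + NKTR-214 tumors. The lowest of the latter exceeded the highest of the former, a pattern that 0.31% of all genes (44 of 14171) showed in this direction. The log2 difference on FPKM + 0.1 was 0.67, and its 95% interval from the variance of the gene alone was 0.0862 to 1.26. It did not pass in the fit across all genes (limma adjusted p = 0.227) and passed with the gene's own variance (adjusted p = 0.0342). With an offset of 1 the difference was 0.000337 and with 0.01 it was 0.81, while the mean ratio without an offset was 1.77-fold higher. The value thus depends on the offset at these low ACT + IL-2 levels. With the mean of 4 CD3 genes as the reference, Cd247 among them, the difference was 1.24 (limma adjusted p = 0.00544). With Cd8a or Lat as the reference it was 0.80 and 0.77 and did not pass (limma adjusted p = 0.0874 and 0.0719).

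The ratio of Pdcd1 to Cd3e was 0.586, 0.781 and 0.634 in ACT + IL-2 tumors and 0.685, 0.498 and 0.699 in ACT + NKTR-214 tumors. The groups overlapped, with a log2 difference of -0.12 and an interval of -0.672 to 0.436 (limma adjusted p = 0.836). Its sign turned to 0.45 with 4 CD3 genes as the reference, to 0.0065 with Cd8a and to 0.040 without ACT + NKTR-214 replicate 2.

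For Tigit the ratio was 0.361, 0.666 and 0.523 in ACT + IL-2 and 0.367, 0.293 and 0.288 in ACT + NKTR-214 tumors. For Cd160 it was 0.0989, 0.277 and 0.155 against 0.108, 0.116 and 0.114. In both genes ACT + IL-2 replicate 1 reached down to the ACT + NKTR-214 range, and the log2 differences of -0.71 (interval -1.48 to 0.0588) and -0.74 (interval -1.89 to 0.411) did not pass (limma adjusted p = 0.203 and 0.184). Cd160 passed without ACT + IL-2 replicate 1 (limma adjusted p = 0.0260) and with an offset of 1 (0.00243), but not with 0.01, at -0.55 (0.331). Without ACT + IL-2 replicate 2 its difference was -0.39 (limma adjusted p = 0.583). With 4 CD3 genes as the reference it was -0.17 for Cd160 (limma adjusted p = 0.701) and -0.15 for Tigit (0.743).

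Lag3 had a ratio of 0.517, 1.05 and 0.694 in ACT + IL-2 tumors and of 0.341, 0.339 and 0.347 in ACT + NKTR-214 tumors, where it hardly varied while Cd3e itself ranged from 26.4 to 58.2 FPKM. The log2 difference of -1.09 (interval -1.89 to -0.287) missed the threshold in the fit across all genes (limma adjusted p = 0.0538) and passed with the gene's own variance (adjusted p = 0.0202) and without ACT + IL-2 replicate 1 (limma adjusted p = 0.00737). Without any other single tumor it missed, at limma adjusted p-values of 0.0674 to 0.259, and with 4 CD3 genes as the reference the difference was -0.52 (0.245). With Cd8a or Lat as the reference it was -0.96 and -0.99 and passed (limma adjusted p = 0.0412 and 0.0225), as it did with an offset of 1 (0.0199), quantile normalization (0.0292) and eBayes without the trend (0.0414).

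Havcr2 was at 0.703, 1.24 and 1.09 per Cd3e in ACT + IL-2 tumors and at 0.283, 0.275 and 0.488 in ACT + NKTR-214 tumors. In 2 of the 3 ACT + IL-2 tumors it was thus more abundant than Cd3e, and in no ACT + NKTR-214 tumor. Its log2 difference was -1.54 (interval -2.54 to -0.538, limma adjusted p = 0.00655). The difference was -1.38 without ACT + IL-2 replicate 2 (limma adjusted p = 0.0613) and -1.41 without ACT + NKTR-214 replicate 1 (0.0528), neither past the threshold.

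Btla was at 0.147, 0.233 and 0.215 per Cd3e in ACT + IL-2 and at 0.0645, 0.0615 and 0.0637 in ACT + NKTR-214 tumors. The log2 difference was -1.77 (interval -2.41 to -1.13, limma adjusted p = 0.00161). Cd244 differed most, at 0.291, 0.484 and 0.307 against 0.0724, 0.0679 and 0.115, with a log2 difference of -2.14 (interval -3.06 to -1.22, limma adjusted p = 0.000119). Ratios of 96.3% of all genes were lower in ACT + NKTR-214 without overlap, as were 4 of these 8.

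Within ACT + IL-2, replicate 2 had the highest ratio to Cd3e for all 8 receptors and replicate 1, the tumor with the most Cd3e, the lowest. The summed FPKM of the 8 genes per Cd3e was 2.91, 5.01 and 3.86 in ACT + IL-2 tumors and 2.41, 2.10 and 2.47 in ACT + NKTR-214 tumors. The ACT + NKTR-214 tumors were the lower and the more alike.

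Genes of activating partners were compared next: Cd28, Cd226, Cd2 and Cd4, whose products share a ligand with an inhibitory receptor, Tnfsf14, which encodes LIGHT, itself a ligand of HVEM, and Icos, a CD28 family receptor with a ligand of its own. All 6 genes of this list were higher in ACT + NKTR-214 tumors, with a median log2 fold change of 2.33, against 20.7% of all genes. Cd2, which like CD244 binds CD48, led with 3.64 ± 0.27 (SE, limma adjusted p = 1.45e-07), followed by Cd28 at 2.72, Cd226 at 2.59, Icos at 2.07 and Tnfsf14 at 1.59. Cd4, the coreceptor of helper T cells, was the least changed at 0.64 ± 0.14 (limma adjusted p = 0.00234), from 0.426 ± 0.292 to 1.1999 ± 0.221 FPKM (SD, n = 3). Relative to Cd3e, Cd28 differed by -0.0026 on the log2 scale (interval -0.463 to 0.458), Cd226 by -0.06 (interval -0.873 to 0.747) and Icos by -0.17 (interval -1.17 to 0.837). These signs depend on the added 0.1 FPKM. The mean ratios without it overlapped and were higher in ACT + NKTR-214: 0.182 and 0.208 for Cd28, 0.168 and 0.182 for Cd226, and 0.0861 and 0.0993 for Icos. Cd4 at -2.49 and Tnfsf14 at -1.24 were called lower relative to Cd3e (limma adjusted p = 1.43e-05 and 0.0271), as were 98.3% of all genes. The ratio of Cd2 to Cd3e was higher in ACT + NKTR-214 without overlap, by 0.26 on the log2 scale (interval 0.0777 to 0.446), and did not pass in the fit across all genes (limma adjusted p = 0.648).

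The balance within each pair of receptors was read from their ratio in the same tumor. Ctla4 to Cd28 was 1.33, 1.51 and 1.18 in ACT + IL-2 and 2.18, 2.15 and 1.83 in ACT + NKTR-214 tumors, higher in the latter without overlap and by 0.68 on the log2 scale. Tigit to Cd226 was 2.58, 2.67 and 4.51 against 1.97, 1.55 and 1.71, lower without overlap. Its log2 difference was -0.65, and it was 0.016 with an offset of 1 and -0.84 with 0.01. Both inhibitory partners outnumbered the activating one in FPKM in all 6 tumors.

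Cd244 to Cd2 was 0.438, 0.658 and 0.488 in ACT + IL-2 and 0.0896, 0.0833 and 0.136 in ACT + NKTR-214 tumors, the largest shift of the 4 pairs. Lag3 to Cd4 was 3.61, 9.78 and 4.48 against 13.9, 14.3 and 9.62, and these groups overlapped. An exact two-sided permutation test was run on the log2 ratios after adding 0.1 FPKM to each gene, where the Lag3 to Cd4 groups no longer overlapped. Each of the 4 pairs then gave an exact p = 0.1 (adjusted 0.1), the smallest that 3 against 3 tumors allow, so the pairs are a description.

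Ligand genes were partly higher. Of 18 ligand genes, 10 were called higher and 1 lower in ACT + NKTR-214, against 20.7% and 8.28% of all genes, with a median log2 fold change of 1.04. Cd48, the ligand of CD244, led with 2.28 ± 0.25 (SE, limma adjusted p = 5.91e-06), from 6.82 ± 3.09 to 36.5 ± 11.2 FPKM (SD, n = 3). The PD-1 ligand gene Pdcd1lg2 (PD-L2) followed at 2.18 ± 0.14 (limma adjusted p = 5.82e-08), from 0.895 ± 0.144 to 7.59 ± 0.303 FPKM, and the CTLA-4 ligand gene Cd80 at 1.52 ± 0.19 (limma adjusted p = 1.82e-05).

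The MHC class II genes H2-Ab1 and H2-Aa, whose products LAG-3 binds, had log2 fold changes of 1.49 and 1.38. Cd274 (PD-L1) and Tnfrsf14 (HVEM), chosen after their values were seen, were more abundant than Pdcd1 and than Btla and Cd160, the genes of their receptors, in every tumor. Cd274 measured 28.9 ± 5.06 and 70.5 ± 9.28 FPKM and Tnfrsf14 measured 11.2 ± 2.64 and 21.8 ± 1.48 FPKM (SD, n = 3).

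Among the TIGIT ligand genes, Nectin3 was the one ligand gene called lower, from 4.67 ± 0.352 to 2.39 ± 0.326 FPKM (SD, n = 3), with a log2 fold change of -0.75 ± 0.15 (SE, limma adjusted p = 0.00130). Pvr and Nectin2, which encode the main TIGIT ligands and were also chosen after their values were seen, were at 20.1 ± 3.19 and 20.5 ± 1.55 FPKM and at 8.10 ± 1.25 and 7.80 ± 0.506 FPKM. Their log2 differences were 0.04 ± 0.15 and -0.04 ± 0.15 (SE), neither past the threshold.

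Of 12 genes of signalling partners, 7 were called higher and none lower, against 20.7% and 8.28% of all genes, with a median log2 fold change of 0.54. The 7 became 6 with a minimum mean of 1 FPKM, where 2418 of 11558 genes were higher, and 5 with no minimum, where 2591 of 17113 were. Lck, the kinase that phosphorylates the tails of CD3 and of PD-1, led with 3.03 ± 0.22 (SE, limma adjusted p = 1.03e-07). Sh2d1a, which encodes the CD244 adaptor SAP, followed with 1.93, and Inpp5d, which encodes the phosphatase SHIP-1, with 1.74. Fyn, a kinase that binds SAP, was at 0.88, and Ptpn6 (SHP-1), a phosphatase recruited by several of these receptors, at 0.82.

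The SAP-related gene Sh2d1b2, 1 of the 7, was listed at 0 in all 3 ACT + IL-2 tumors and reached at most 0.919 FPKM, so that it entered the test through the ACT + NKTR-214 tumors alone, and its call supports nothing. The count of partner genes moved with the samples and the scaling: without ACT + IL-2 replicate 2, 4 were higher and 2 lower, where 2004 and 2003 of 14172 genes were. Scaling to the 75th percentile or quantile normalization gave 3 lower, where 3710 and 4553 of 14172 genes were lower.

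Of 20 further inhibitory receptor genes, 19 were higher and none lower in ACT + NKTR-214 tumors, against 20.7% and 8.28% of all genes, with a median log2 fold change of 1.54. The lymphocyte receptors Klrc1 (NKG2A) and Cd96 led with 2.75 ± 0.20 and 2.55 ± 0.22 (SE, limma adjusted p = 1.36e-07 and 6.89e-07). They were followed by Fcgr2b and Lilrb4a, receptors of myeloid cells, at 2.28 and 2.11, and by Cd5, a T cell receptor, at 2.10. The exception was Cd72, at 23.7 ± 7.10 and 18.9 ± 3.86 FPKM (SD, n = 3).

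**Figure D4:**
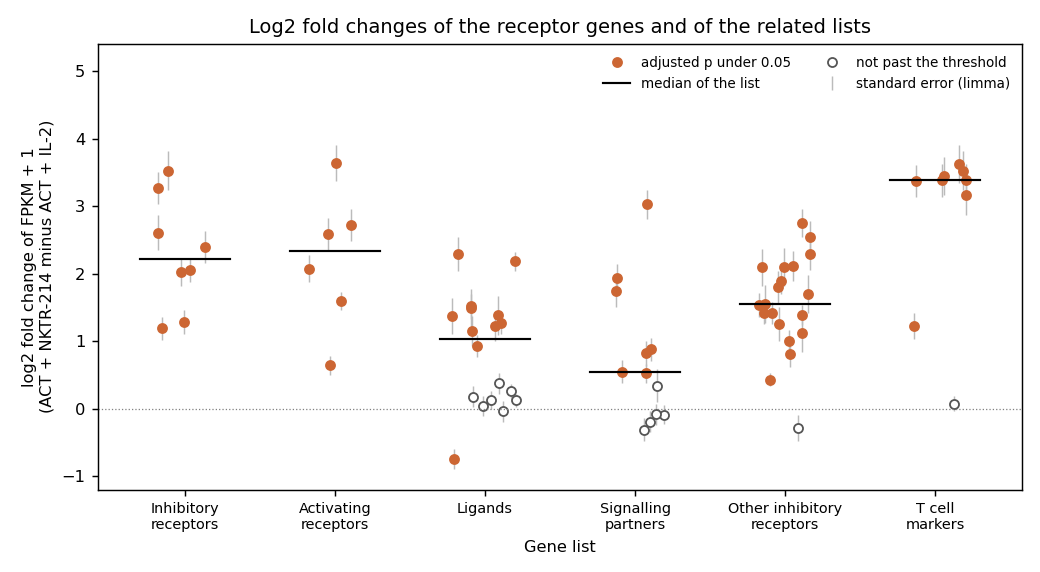
Log2 fold change of FPKM + 1 (ACT + NKTR-214 minus ACT + IL-2) for each tested gene of 6 lists, with grey bars for the limma standard error, filled points for an adjusted p under 0.05, open points for the rest and a line at the median of each list. The medians are 2.22 for the 8 inhibitory receptors, 2.33 for the activating partners (axis label Activating receptors), 1.04 for the ligands, 0.54 for the signalling partners, 1.54 for the other inhibitory receptors and 3.38 for the T cell markers.

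CTLA-4 and TIGIT are also known on regulatory T cells. Foxp3, their defining gene, was at 2.21 ± 0.219 FPKM with IL-2 and at 2.21 ± 0.221 FPKM with NKTR-214 (SD, n = 3), with a log2 difference of -0.0017, and Ikzf2 was at 1.22 ± 0.180 and 1.51 ± 0.147 FPKM. Of the 4 markers on this list, Il2ra (CD25) at 3.76 and Tnfrsf18 (GITR) at 2.88 were called higher, as were 20.7% of all genes. These are genes that activated T cells of other kinds also express. The summed level of the list was 5.72 to 7.32 FPKM with IL-2 and 39.4 to 57.9 FPKM with NKTR-214, and its part in the receptor differences was not tested.

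Melanocyte genes moved against the receptors. Their summed level was 5176 to 6627 FPKM with IL-2 and 2554 to 3615 FPKM with NKTR-214, with 3 of 5 called lower, against 8.28% of all genes: Tyrp1 at -1.08, Pmel at -0.90 and Tyr at -0.78 on the log2 scale. None of the 4 mast cell markers was called. How far the smaller melanocyte signal bears on the levels of the receptors was not tested.

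The genes whose profile over the 6 tumors lay nearest to that of each receptor were found among genes with a mean of at least 1 FPKM, by the Euclidean distance between centred log2(FPKM + 1) values. This distance grows with the size of the fold change and was not used to rank the receptors. Cd160 lay nearest to Gfi1, at a distance of 0.098, followed by Bicdl1 (0.136). Tigit lay nearest to Cxcr6 (0.249) and to Cd226 (0.252), the receptor that shares its ligands. Ctla4 lay nearest to Nrgn (0.411) and Cd3d (0.413), and Pdcd1 lay nearest to Fam107b (0.294) and Acap1 (0.314).

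For Lag3 the nearest genes were Grap2 (0.171) and Cd69 (0.206), an early activation marker of lymphocytes. For Havcr2 they were Ahnak (0.243) and Unc13d (0.244), for Btla Tnfsf10 (0.168) and Adgre5 (0.172), and for Cd244 Syce2 (0.151) and Tbc1d9 (0.189). With 6 tumors in 2 separate groups, a near profile mostly means a fold change of like size.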

How the data were processed

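Total RNA from 6 B16-F10 tumors harvested at day 12 was sequenced by the authors as 50-base single-end reads. Reads were mapped to GRCm38 with HISAT2 2.0.4 and counted with HTSeq, the gene annotation not being given in the sources used here. The authors deposited FPKM values, normalized for exon length and mapped reads, with no other scaling between libraries. Read numbers were estimated here from the whole steps of low FPKM values, of which 330 of 1517 low genes lay at whole multiples within 0.03 reads, and no count test was run.

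Values were log2 transformed after adding 1. Genes averaging 0.1 FPKM or more were compared between 3 and 3 tumors with limma 3.58.1 in R 4.3.3 (lmFit, eBayes with trend), with Benjamini-Hochberg adjustment over all genes and a threshold of 0.05. For levels relative to Cd3e, log2(FPKM + 0.1) of Cd3e in the same tumor was subtracted from every gene and the same fit was run on 14171 genes. There each gene carries the variation of Cd3e itself, so intervals from the variance of the single gene (95%) are given beside it. Nearly all genes were called lower in that fit, so its adjusted p-values are close to unadjusted ones. Receptor pairs were tested by exact permutation, two-sided. Both fits and the depth estimate were tested on simulated data.

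The receptors, ligands, partners and marker lists were chosen with earlier results of these data known. The genes named are all 8 receptors, the CD3 and CD8 genes, members of pairs, of each other list every gene called lower and up to 5 called higher with the largest log2 fold change, and the 2 nearest profiles of each receptor, with exceptions named where they occur. Ncr1, Klra8, Pax5, Cd79a, Cd79b, Foxp3, Ikzf2, Thy1, Trat1, Cd72 and Sh2d1b2 lie outside this rule and were chosen after their values were seen. Alternatives were other pseudocounts, filters and scalings, eBayes without trend, no moderation, the replicate number as a block, other T cell references, and each tumor left out in turn. Gene positions are from GENCODE vM21 and promoters from an extract of RefSeq. That extract held all receptors but Lag3, which does not mean that RefSeq itself lacks Lag3.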

Additional observations from a re-analysis of the deposited data

How the results depend on the processing

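The 8 receptor genes were higher in 14 of the 15 alternatives to the comparison of levels, the exception being the fit without moderation of the variance, which called 0. That fit called 1 ligand, 1 activating receptor, 0 signalling partner and 0 other inhibitory receptor genes higher and 0 ligand genes lower. Of all genes it called 101 higher and 27 lower. Relative to Cd3e it called 1 receptor, Ctla4, higher, where 7 of 14171 genes were. Signalling partners called lower numbered 3 under quantile normalization and 3 under scaling to the 75th percentile, where 4553 and 3710 of all 14172 genes were lower. Leaving out 1 tumor at a time gave 4 to 8 signalling partners higher and 0 to 2 lower, where 2004 to 3480 and 635 to 2003 of 14172 genes were. It gave 2 to 5 receptors lower relative to Cd3e, where 13769 to 14014 of 14171 genes were. A pseudocount of 1 gave 5 receptors lower relative to Cd3e, where 14066 of 14171 genes were. It gave a Tigit to Cd226 difference of 0.016, against -0.84 with 0.01. With 4 CD3 genes as the reference, 1 receptor was higher, where 22 of 14172 genes were, and the relative difference of Pdcd1 reversed to 0.45. The Pdcd1 difference also reversed to 0.0065 with Cd8a. With 1 tumor left out it ranged from -0.21 to 0.040, the latter without ACT + NKTR-214 replicate 2. The cause of these changes was not tested, apart from the higher pseudocount, which shrinks low levels by construction, and the CD3 reference, which differs by including Cd247, the one of its genes whose ratio to Cd3e fell.

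The replicate numbers did not pair the tumors: deviations of same-numbered tumors correlated at -0.206, -0.067 and 0.396. With the replicate number as a block, 8 receptors were higher, where 3090 of 14172 genes were higher and 1227 lower. Relative to Cd3e, 4 receptors were lower, where 13979 of 14171 genes were, and Lag3 also passed (limma adjusted p = 0.0213). Depth limits the ACT + IL-2 values of Cd160, Ctla4, Tigit and Btla, which rest on about 17 to 60 reads each.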
